A study of Mus musculus with 44 samples.

Results

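Amino acid catabolism and the urea cycle were followed as a set of 57 named genes in the livers of 44 mice. The genes were chosen by name for their place in amino acid uptake, transamination, carbon skeleton breakdown or urea synthesis. The rule uses names and no measured values, but the choice was made with earlier results of these data known. Shares of called genes in the set are therefore no independent test. Of the 57 genes, 54 had a probe set annotated to that gene alone. All 54 passed the expression filter, among 18522 probe sets and 10921 genes that did. Gls2, Sds and Sdsl were not analysed here. All mice were male C57BL/6N animals of 11 to 12 weeks, fed for 4 weeks on a purified diet, and each liver gave 1 Affymetrix Mouse Gene 2.1 ST array. The exercised vitamin E group (n = 12) ate a feed enriched to 2000 IU/kg vitamin E plus 100 mg/kg vitamin C, and its mice ran uphill (14° slope) on a treadmill at 13 m/min over 60 min. The exercised control group (n = 12) did the same run on the control diet (vitamin E at 149 IU/kg, vitamin C at 0 mg/kg). The sedentary vitamin E group (n = 10) and the sedentary control group (n = 10) ate the same diets and stayed in cages near the treadmill, without food for the last 60 min. The enriched diet raised both vitamins together, so the effect of vitamin E alone cannot be told apart from that of vitamin C. Livers were taken within minutes of the end of the run, so the values describe the immediate response only.

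The liver is the main site at which most amino acids lose their nitrogen. Aminotransferases pass amino groups to glutamate or aspartate, the carbon skeletons enter the citric acid cycle, gluconeogenesis or ketone body formation, and the urea cycle of periportal hepatocytes turns ammonia and aspartate nitrogen into urea. Fasting, glucagon and glucocorticoids are known to induce many of these genes in liver, Tat being a textbook example, and amino acids released by working muscle are a substrate for hepatic glucose production.

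Each value is an RMA log2 expression value, and a difference of 1 on this scale is a doubling. The level of 1 probe set cannot be set against that of another, so genes are compared only by their differences between groups. Array medians lay between 1.53 and 1.669, and pairs of arrays correlated at 0.951 to 0.973. The mean over 9 hepatocyte markers lay between 10.72 and 11.02 in each of the 44 mice. All 9 passed the expression filter, as did 1 of 8 skeletal muscle and 1 of 5 pancreatic acinar markers. In these whole-tissue samples, fewer cells of a type and less RNA per cell cannot be told apart. The animal numbers in the labels begin with 24 or 27, for a reason that the sources used here do not give, and both series occur in every group. Between the 2 series 1.8% of probe sets differed, among them 4 of the 54 genes, namely Glud1, Got2, Pccb and Csad, all higher in series 27. Mouse 3 of the exercised control group stood apart from its group in these genes, as described further on.

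After the treadmill run, 4 of the 54 genes rose on the control diet, namely Slc38a2, Got1, Tat and Slc25a15, and 3 rose on the vitamin E diet, namely Slc38a2, Got1 and Tat. No gene of the set passed the test in the lower direction on either diet. A gene was called when its limma p, adjusted by Benjamini-Hochberg over all 18522 probe sets, was under 0.05. On the control diet 7.41% of the genes were called, against 0.599% of all probe sets called higher and 0.081% called lower. On the vitamin E diet 5.56% were called, against 0.2% called higher and 0.0324% called lower. At an unadjusted p under 0.05, 15 of the genes passed on the control diet, 13 with a positive and 2 with a negative difference, which is 27.8% against 9.39% of all probe sets. With vitamin E 8 passed, all positive, which is 14.8% against 6.16%. With the threshold used in the study, an unadjusted p under 0.05 and a fold change of group medians above 1.2, 10 genes passed on the control diet (9 higher and 1 lower, 18.5% against 6.1%) and 5 on the vitamin E diet (9.26% against 4.4%). Most of the set lay close to 0. The median difference was 0.062 over the 54 genes and 0.016 over all probe sets on the control diet, and 0.024 and -0.019 on the vitamin E diet. The 95% interval of the difference lay within 1.2-fold in either direction for 34 genes on the vitamin E diet and for 26 on the control diet. The 2 diets were tested on separate mice, and each comparison has its own sedentary group.

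**Figure D1:**
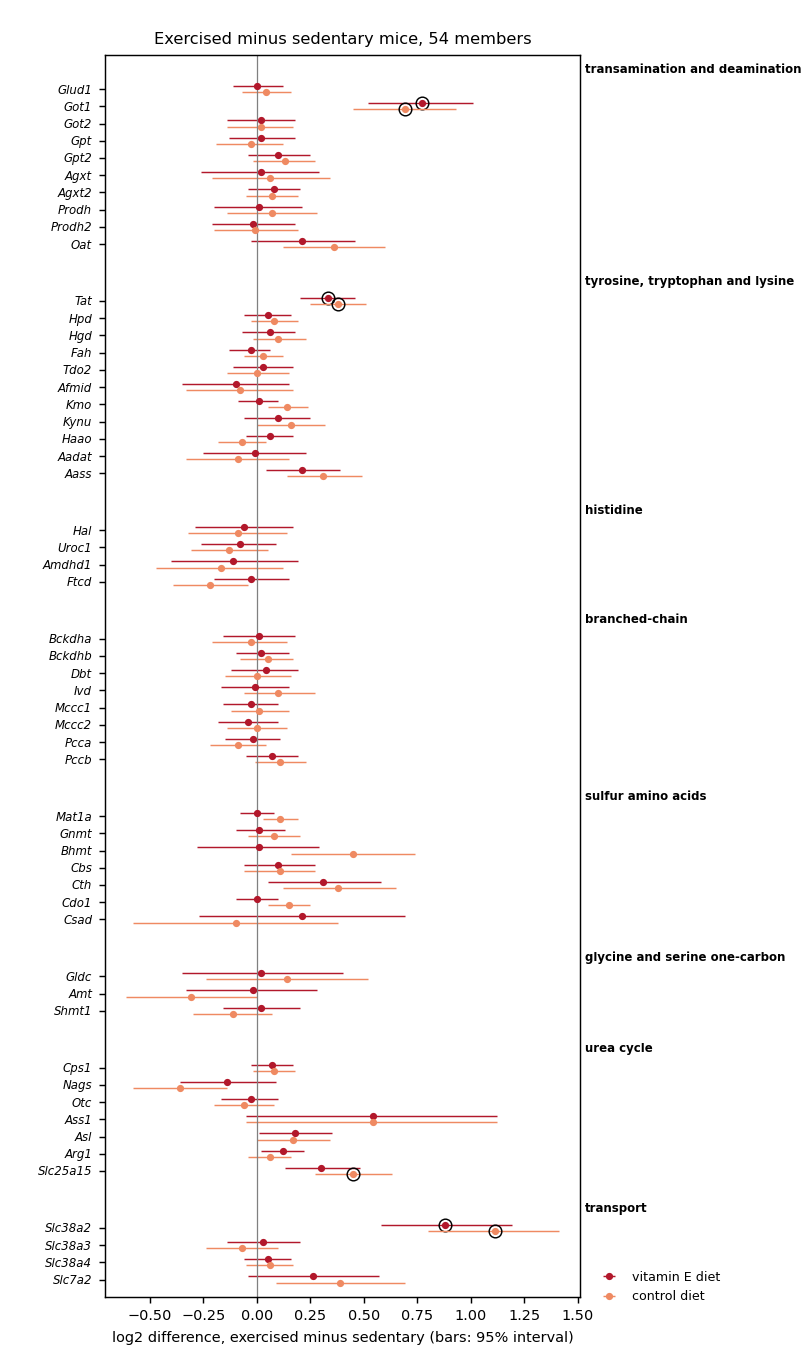
Log2 difference between exercised and sedentary mice for the 54 genes, grouped by pathway, on the vitamin E diet (dark red) and the control diet (orange), with 95% intervals from limma. Circled points have an adjusted p under 0.05: Slc38a2, Got1 and Tat on both diets and Slc25a15 on the control diet, while the branched-chain genes sit around 0 and the histidine genes, with all mice included, slightly to the left (without mouse 3 of the exercised controls, Hal was at 0.01 on the control diet).

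Slc38a2 encodes SNAT2, a sodium-coupled carrier that brings small neutral amino acids such as alanine and glutamine into the cell. Its expression on the control diet was 8.865 at the lowest, 9.462 at the median and 9.824 at the highest in exercised mice, against 7.733, 8.284 and 8.984 in sedentary mice. With vitamin E it was 8.663, 9.091 and 9.565 in exercised mice, against 7.586, 8.19 and 8.761 in sedentary mice. Thus 10 of 12 exercised mice on the control diet, and 11 of 12 on the vitamin E diet, lay above every sedentary mouse on the same diet. The rise was 2.16-fold on the control diet (log2 difference 1.11, SE 0.15, limma adjusted p = 1.02e-05) and 1.85-fold on the vitamin E diet (0.88, SE 0.15, adjusted p = 0.000822). Within series 24 and series 27 the differences were 1.17 and 1.03 on the control diet and 0.83 and 0.94 on the vitamin E diet.

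The other 3 carriers did not pass the test. Slc7a2, which carries arginine and other cationic amino acids, had a log2 difference of 0.39 on the control diet (unadjusted p = 0.0129, adjusted p = 0.349) and 0.26 on the vitamin E diet (adjusted p = 0.891). Slc38a3, the glutamine and histidine carrier SNAT3, had differences of -0.07 and 0.03, and Slc38a4, the carrier SNAT4, had 0.06 and 0.05, in each case with the control diet before the vitamin E diet.

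Got1, the cytosolic aspartate aminotransferase, exchanges amino groups between aspartate and glutamate. On the vitamin E diet its expression was 10.441 at the lowest, 10.626 at the median and 11.115 at the highest in exercised mice, against 9.534, 9.969 and 10.306 in sedentary mice. On the control diet it was 10.156, 10.802 and 10.951 in exercised mice, against 9.321, 10.054 and 10.357 in sedentary mice. The groups did not overlap on the vitamin E diet, and on the control diet only mice 3 and 5 of the exercised group lay within the sedentary range. The rise was 1.7-fold on the vitamin E diet (log2 difference 0.77, SE 0.12, limma adjusted p = 0.000261) and 1.62-fold on the control diet (0.69, SE 0.12, adjusted p = 0.000638). Within series 24 and series 27 it was 0.76 and 0.77 on the vitamin E diet and 0.63 and 0.75 on the control diet.

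The other transamination and deamination genes showed no call. Got2, the mitochondrial isoform of the same enzyme, had a log2 difference of 0.02 on each diet (95% interval -0.14 to 0.17 on the control diet and -0.14 to 0.18 on the vitamin E diet). Oat, ornithine aminotransferase, had 0.36 on the control diet (SE 0.12, unadjusted p = 0.00443, adjusted p = 0.229) and 0.21 on the vitamin E diet (adjusted p = 0.886). The alanine aminotransferases Gpt (-0.03 and 0.02) and Gpt2 (0.13 and 0.1), and Glud1 (0.04 and 0), which releases ammonia from glutamate, were within 0.13 of 0, the control diet value standing first. Agxt, Agxt2, Prodh and Prodh2, which act on glyoxylate, beta-aminoisobutyrate, proline and hydroxyproline, had differences between -0.02 and 0.08.

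Tat, tyrosine aminotransferase, starts tyrosine breakdown in the liver. On the control diet its expression was 10.896 at the lowest, 11.192 at the median and 11.467 at the highest in exercised mice, against 10.478, 10.828 and 11.029 in sedentary mice. On the vitamin E diet it was 11.026, 11.101 and 11.234 in exercised mice, against 10.533, 10.738 and 11.07 in sedentary mice. All exercised mice on the control diet except mouse 5, and 8 of 12 on the vitamin E diet, lay above every sedentary mouse on the same diet. The rise was 1.3-fold on the control diet (log2 difference 0.38, SE 0.07, limma adjusted p = 0.000638) and 1.26-fold on the vitamin E diet (0.33, SE 0.07, adjusted p = 0.00736). Within series 24 and series 27 it was 0.41 and 0.33 on the control diet and 0.31 and 0.35 on the vitamin E diet. The SD among exercised mice was 0.06 on the vitamin E diet and 0.13 on the control diet, against 0.17 and 0.19 among the sedentary mice of those diets; these spreads were not tested.

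The steps after Tat were not called. Hpd, Hgd and Fah, the next enzymes of tyrosine breakdown, had log2 differences of 0.08, 0.1 and 0.03 on the control diet and 0.05, 0.06 and -0.03 on the vitamin E diet. In tryptophan breakdown, Tdo2, its entry enzyme, had 0 on the control diet and 0.03 on the vitamin E diet, whereas Kmo had 0.14 on the control diet (unadjusted p = 0.00501, adjusted p = 0.238) and 0.01 on the vitamin E diet. Kynu had 0.16 and 0.1, Afmid -0.08 and -0.1, Haao -0.07 and 0.06, and Aadat -0.09 and -0.01, the control diet value standing before the vitamin E one. Aass, which starts lysine breakdown, came nearest to a call, with 0.31 on the control diet (SE 0.09, unadjusted p = 0.000745, adjusted p = 0.0867) and 0.21 on the vitamin E diet (adjusted p = 0.628).

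**Figure D2:**
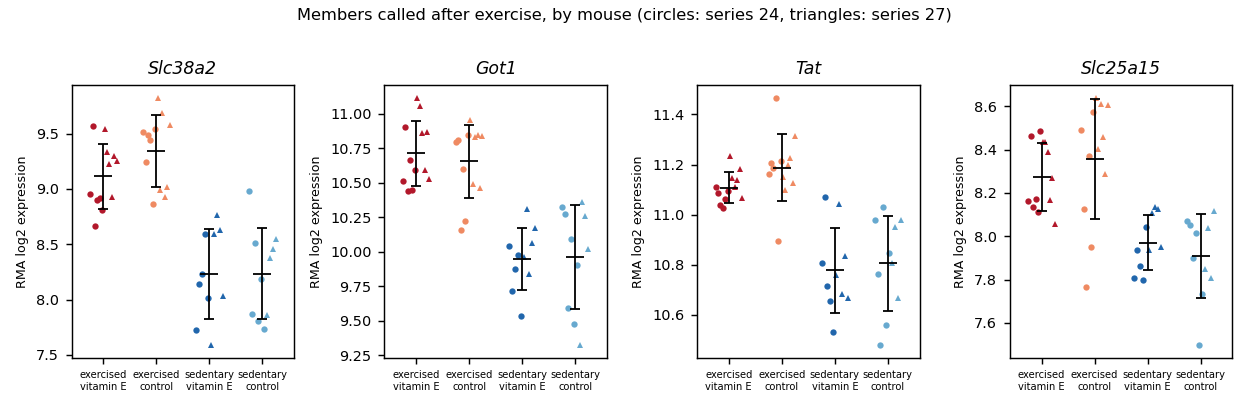
RMA log2 expression of Slc38a2, Got1, Tat and Slc25a15 in each mouse by group, with the group mean and SD (n = 12, 12, 10 and 10 from left to right), circles for animal number series 24 and triangles for series 27. For Got1 all exercised vitamin E mice, at 10.441 or above, lie over the sedentary vitamin E mice, at 10.306 or below.

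Slc25a15 is the mitochondrial ornithine carrier, which joins the cytosolic and the mitochondrial steps of the urea cycle. On the control diet its expression was 7.765 at the lowest, 8.428 at the median and 8.639 at the highest in exercised mice, against 7.496, 7.958 and 8.117 in sedentary mice. With vitamin E it was 8.056, 8.22 and 8.485 in exercised mice, against 7.8, 7.944 and 8.135 in sedentary mice. Above every sedentary mouse lay 10 of 12 exercised mice on the control diet and 9 of 12 on the vitamin E diet. It rose 1.36-fold on the control diet (log2 difference 0.45, SE 0.09, limma adjusted p = 0.00388), and had a difference of 0.3 on the vitamin E diet (SE 0.09, unadjusted p = 0.00131), which did not pass (adjusted p = 0.217). Fitted on the exercised and sedentary control mice alone, the control-diet difference of 0.45 had an adjusted p of 0.0719. The difference between the 2 diets in this response was -0.15 (95% interval -0.4 to 0.11, unadjusted p = 0.25, adjusted p = 0.941), so a difference between the diets in this response was not shown.

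None of the other 6 urea cycle genes was called. Cps1, which makes carbamoyl phosphate and is the entry step, was 11.042 at the lowest, 11.379 at the median and 11.53 at the highest in exercised control mice, against 11.142, 11.311 and 11.399 in sedentary control mice, and its differences were 0.08 on the control diet and 0.07 on the vitamin E diet. Nags makes N-acetylglutamate, the activator that Cps1 needs, and had the lowest difference of the whole set on each diet. Its expression on the control diet was 5.605, 6.006 and 6.836 (lowest, median and highest) in exercised mice, against 6.077, 6.468 and 6.658 in sedentary mice. The Nags difference was -0.36 on the control diet (SE 0.11, unadjusted p = 0.00232, adjusted p = 0.172) and -0.14 on the vitamin E diet (adjusted p = 0.959). Of the 12 exercised control mice 6 lay below every sedentary control mouse and mouse 10 lay above them all.

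Otc, ornithine transcarbamylase, had differences of -0.06 on the control diet and -0.03 on the vitamin E diet. Asl, argininosuccinate lyase, had 0.17 on the control diet (unadjusted p = 0.0509, adjusted p = 0.533) and 0.18 on the vitamin E diet (unadjusted p = 0.041, adjusted p = 0.778). Arg1, the arginase that releases urea, had 0.06 and, on the vitamin E diet, 0.12 (unadjusted p = 0.0155, adjusted p = 0.6). The single probe set of Ass1, argininosuccinate synthase, had group means of 3.6, 3.65, 3.06 and 3.12 in exercised vitamin E, exercised control, sedentary vitamin E and sedentary control mice. Its difference was 0.54 on each diet, with a 95% interval of -0.05 to 1.12 on each diet, the widest of the set. How well this probe set, with its low signal, follows Ass1 was not tested.

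**Figure D3:**
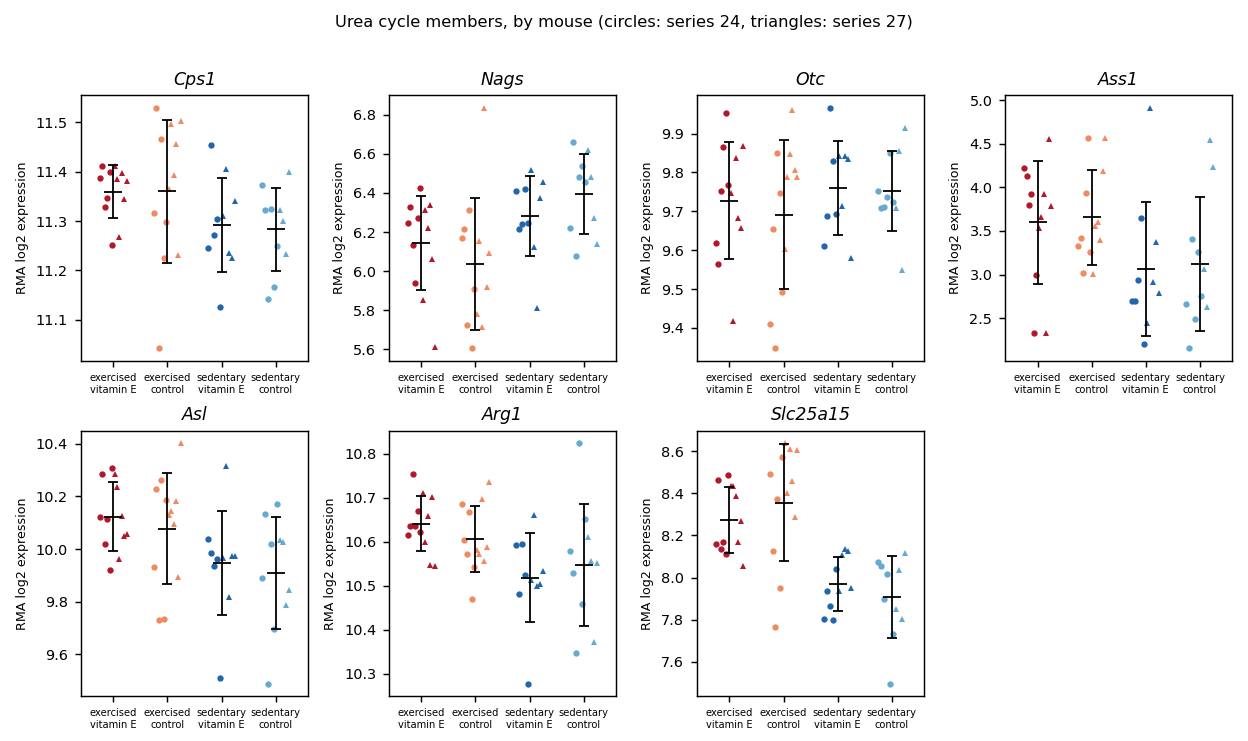
RMA log2 expression of the 7 urea cycle genes in each mouse by group, with the group mean and SD (n = 12, 12, 10 and 10 from left to right), circles for animal number series 24 and triangles for series 27. Most exercised mice stand above the sedentary ones for Slc25a15, while exercised control mice reach down to 5.605 for Nags. For Cps1 mouse 3 of the exercised controls lies at 11.042 and the others of its group at 11.225 or above.

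None of the 4 genes of histidine breakdown was called. With all mice included their differences after exercise were negative on both diets, with medians of -0.15 on the control diet and -0.07 on the vitamin E diet. The control-diet values rested largely on mouse 3 of the exercised group, without which the median was -0.06 and the differences were 0.01 for Hal, -0.06 for Uroc1, -0.05 for Amdhd1 and -0.14 for Ftcd. Ftcd, the last enzyme of the pathway, had the smallest unadjusted p on the control diet, with expression of 6.697, 7.56 and 7.813 (lowest, median and highest) in exercised mice, against 7.538, 7.721 and 8.024 in sedentary mice. Of the exercised control mice, 4 lay below all sedentary control mice. The Ftcd difference was -0.22 (SE 0.09, unadjusted p = 0.0154, limma adjusted p = 0.362) there and -0.03 on the vitamin E diet. Hal, Uroc1 and Amdhd1, the preceding steps, had -0.09, -0.13 and -0.17 on the control diet and -0.06, -0.08 and -0.11 on the vitamin E diet, Uroc1 having the smallest p there (SE 0.09, adjusted p = 0.975).

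The 8 genes of branched-chain amino acid breakdown lay around 0. Their median difference was 0.01 on the control diet and 0 on the vitamin E diet, and no gene passed even the unadjusted threshold. Without mouse 3 of the exercised controls the control-diet median was 0.04 and Pccb alone passed it (0.13, unadjusted p = 0.0415, limma adjusted p = 0.504). Bckdha, Bckdhb and Dbt, subunits of the branched-chain ketoacid dehydrogenase, had -0.03, 0.05 and 0 on the control diet and 0.01, 0.02 and 0.04 on the vitamin E diet. Ivd, Mccc1, Mccc2 and Pcca, enzymes further down these pathways, lay between -0.09 and 0.1. Pccb, a subunit of propionyl-CoA carboxylase, had the largest difference of the group, 0.11 on the control diet (SE 0.06, unadjusted p = 0.0616, adjusted p = 0.558) and 0.07 on the vitamin E diet (SE 0.06, adjusted p = 0.959).

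Among the sulfur amino acid genes 4 of 7 passed the unadjusted threshold on the control diet (9.39% of all probe sets did). On the vitamin E diet 1 passed (6.16% of all probe sets did), and no gene was called. Of the 4, Bhmt rests on a low-signal probe set. Cth, which makes cysteine from cystathionine, was 9.149, 10.177 and 10.537 (lowest, median and highest) in exercised control mice, against 9.212, 9.624 and 10.139 in sedentary control mice. Its difference was 0.38 on the control diet (SE 0.13, unadjusted p = 0.00531, adjusted p = 0.246) and 0.31 on the vitamin E diet (SE 0.13, unadjusted p = 0.0204, adjusted p = 0.642). Of the exercised control mice, 6 lay above every sedentary control mouse and mouse 3 lay below them all.

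Cdo1, which oxidises cysteine, had a difference of 0.15 on the control diet (unadjusted p = 0.00478, adjusted p = 0.235) and 0 on the vitamin E diet. Mat1a, which makes S-adenosylmethionine in liver, had 0.11 on the control diet (unadjusted p = 0.0102, adjusted p = 0.32) and 0 on the vitamin E diet. Bhmt, which remethylates homocysteine, had 0.45 on the control diet (SE 0.14, unadjusted p = 0.00293, adjusted p = 0.194) and 0.01 on the vitamin E diet, on a probe set with group means of 2.06 to 2.51. This low-signal probe set lay near the array medians of 1.53 to 1.669, and how well it follows Bhmt was not tested. Cbs (0.11 and 0.1), Gnmt (0.08 and 0.01) and Csad (-0.1 and 0.21), which make cystathionine, sarcosine and hypotaurine, did not pass. The one-carbon genes Gldc, Amt and Shmt1, of glycine cleavage and serine interconversion, had 0.14, -0.31 and -0.11 on the control diet and 0.02, -0.02 and 0.02 on the vitamin E diet, the nearest to a call being Amt on the control diet (SE 0.15, unadjusted p = 0.0521, adjusted p = 0.536).

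The promoters of the 4 called genes are shown because these genes rose in the same comparison. Sequences are the 250 bases before the annotated start from RefSeq on GRCm38.p6, written 5′ to 3′ on the gene's strand, with searched motifs in capitals. Slc38a2 lies at chr15:96699729-96699978 on the minus strand, Got1 at chr19:43524606-43524855 on the minus strand, Tat at chr8:109990186-109990435 on the plus strand and Slc25a15 at chr8:22398622-22398871 on the minus strand.
Slc38a2: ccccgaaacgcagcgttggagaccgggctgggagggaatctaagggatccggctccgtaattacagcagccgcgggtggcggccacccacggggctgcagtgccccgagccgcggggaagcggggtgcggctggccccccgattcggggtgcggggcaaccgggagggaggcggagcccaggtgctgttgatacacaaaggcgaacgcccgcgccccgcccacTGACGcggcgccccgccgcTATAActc
Got1: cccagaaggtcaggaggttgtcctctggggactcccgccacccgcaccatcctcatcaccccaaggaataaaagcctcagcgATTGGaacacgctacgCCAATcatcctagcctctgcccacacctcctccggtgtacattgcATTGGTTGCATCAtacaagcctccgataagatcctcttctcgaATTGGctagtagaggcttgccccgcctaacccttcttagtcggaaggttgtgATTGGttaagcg
Tat: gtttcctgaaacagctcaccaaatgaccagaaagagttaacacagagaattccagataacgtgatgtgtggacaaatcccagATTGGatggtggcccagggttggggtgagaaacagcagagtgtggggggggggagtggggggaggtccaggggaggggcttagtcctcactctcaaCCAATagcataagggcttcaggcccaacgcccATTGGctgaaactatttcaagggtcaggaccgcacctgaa
Slc25a15: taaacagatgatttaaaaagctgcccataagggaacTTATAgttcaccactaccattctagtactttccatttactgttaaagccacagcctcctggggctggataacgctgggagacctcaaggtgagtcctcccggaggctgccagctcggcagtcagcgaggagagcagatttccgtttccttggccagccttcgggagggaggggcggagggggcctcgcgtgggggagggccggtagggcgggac
On both strands 9 motifs were searched: the CREB site TGACGTCA and its half-site TGACG, the glucocorticoid receptor half-site AGAACA, the C/EBP palindrome TTGCGCAA, the C/EBP-ATF composite site TGATGCAA, the E-box CACGTG, the D-box TTATGCAA, the CCAAT box CCAAT and the TATA core TATAA. The half-site is contained in the full CREB site.

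Got1 was the only gene of the 43 with a listed promoter to hold the C/EBP-ATF composite site, as TTGCATCA on the printed strand from 102 to 95 bases before its start, directly after a CCAAT box. That motif occurs in 0.818% of 27025 promoters of this length. Got1 also has 5 CCAAT boxes and Tat has 3, a motif found in 22 of the 43 genes (51.2%) and in 34.5% of all promoters. The CCAAT box, CREB half-site and TATA core were chosen after the promoters were read, so their shares are no independent test. Slc38a2 has a CREB half-site, found in 5 of 43 genes (11.6%) and 17.9% of all promoters, and a TATA core directly before the start, found in 10 of 43 genes (23.3%) and 23.5% of all promoters. Slc25a15 has a TATA core only, far from the start.

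The other motifs were absent from these 4 windows. The glucocorticoid receptor half-site was in 4 of 43 genes (9.3%) and 16.2% of all promoters, and the E-box in 3 of 43 (6.98%) and 6.05%. No gene of the set held the full CREB site, the C/EBP palindrome or the D-box, which occur in 1.62%, 0.17% and 0.744% of all promoters. Sites outside these 250 bases were not searched, so an absent motif here does not speak for the rest of a gene. Slc25a15 has 2 listed starts, and the window before 1 of them is shown. Binding was not measured.

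The levels of the called genes were compared mouse by mouse in 6 pairs, of which 5 passed the test. How many other gene pairs on the array would pass was not counted, so this count is no result particular to these genes. The mean deviation of the 54 genes from their mean over all mice ran from -0.36 to 0.14 between mice. The part of such shared shifts in these correlations was not tested. Over 44 mice, after subtracting each group's mean, Got1 and Slc25a15 had a Pearson r of 0.63 (permutation p = 1e-05, the smallest that 100000 permutations within groups can give; adjusted over 6 pairs 6e-05) and a Spearman rho of 0.6 (p = 6e-05). Got1 and Tat had r = 0.46 (permutation p = 0.00444, adjusted 0.0121) and rho = 0.43 (p = 0.00599), and Slc38a2 and Got1 had r = 0.42 (permutation p = 0.00805, adjusted 0.0121) and rho = 0.44 (p = 0.00365). Slc38a2 with Slc25a15 gave r = 0.4 (permutation p = 0.00624, adjusted 0.0121) and rho = 0.53 (p = 0.00029), and Tat with Slc25a15 gave r = 0.38 (permutation p = 0.012, adjusted 0.0144) and rho = 0.36 (p = 0.0141). Slc38a2 and Tat had r = 0.19 (permutation p = 0.261) and rho = 0.17 (p = 0.314).

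Without the 2 mice farthest from the median on the x axis, r for Got1 and Slc25a15 was 0.61, and it was 0.64 in series 24 and 0.51 in series 27. For the other 4 pairs that passed, r without the 2 farthest mice lay between 0.4 and 0.53, and the within-series r was lowest for Slc38a2 and Slc25a15 in series 24 (0.24) and highest for the same pair in series 27 (0.57). In single groups of 10 or 12 mice r varied widely. It ran from 0.04 to 0.85 for Got1 and Slc25a15, from 0.36 to 0.72 for Got1 and Tat, from 0.17 to 0.83 for Slc38a2 and Got1, from 0.3 to 0.52 for Slc38a2 and Slc25a15, and from 0.14 to 0.65 for Tat and Slc25a15.

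Diet alone called none of the 54 genes, in exercised or in sedentary mice, and the limma count was 0% of all probe sets in each of these comparisons. At an unadjusted p under 0.05 the vitamin E diet gave 3 genes in exercised mice (5.56% against 5.6% of all probe sets) and 1 in sedentary mice (1.85% against 4.77%). With the study's threshold it gave 0 genes in exercised mice (3.26% of all probe sets) and 1 in sedentary mice (1.85% against 3.61%). The 95% interval lay within 1.2-fold for 36 genes in exercised and 38 in sedentary mice, and larger diet differences remain within the intervals of the rest.

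In exercised mice, Haao, an enzyme of the kynurenine pathway, had a vitamin E minus control difference of 0.12 (SE 0.05, unadjusted p = 0.0232, adjusted p = 0.868), with a median of 9.823 on the vitamin E diet and 9.722 on the control diet. Cdo1 had -0.11 (SE 0.05, unadjusted p = 0.0249, adjusted p = 0.878) and Kmo -0.1 (unadjusted p = 0.0337, adjusted p = 0.88). Slc38a2 had -0.23 (SE 0.14, adjusted p = 0.923), Shmt1 0.17 (SE 0.09, adjusted p = 0.887), Ftcd 0.11 (SE 0.08, adjusted p = 0.934), Nags 0.11 (SE 0.11, adjusted p = 0.941), Agxt2 0.1 (SE 0.06, adjusted p = 0.914) and Pcca 0.08 (SE 0.06, adjusted p = 0.935). The largest positive differences, 0.25 for Amt (unadjusted p = 0.0875) and 0.23 for Csad (unadjusted p = 0.318), came with wide intervals. None of these values passed after adjustment, and the groups overlapped in each case.

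In sedentary mice, Bhmt, on its low-signal probe set, had the largest diet difference, 0.34 (SE 0.15, unadjusted p = 0.0262, adjusted p = 1). Its expression was 2.026, 2.428 and 3.03 (lowest, median and highest) on the vitamin E diet, against 1.706, 2.135 and 2.401 on the control diet. In the other pathways the genes with the smallest p were Nags at -0.11 (SE 0.12), Hal at -0.12 (SE 0.12), Pccb and Hgd at 0.09 (SE 0.06 and 0.07), Agxt2 at 0.09 (SE 0.06), Shmt1 at 0.03 (SE 0.09) and Slc38a3 at -0.03 (SE 0.09), each with an adjusted p of 1. In the sedentary state, Slc38a2, Got1 and Tat differed between the diets by 0, -0.01 and -0.03.

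**Figure D4:**
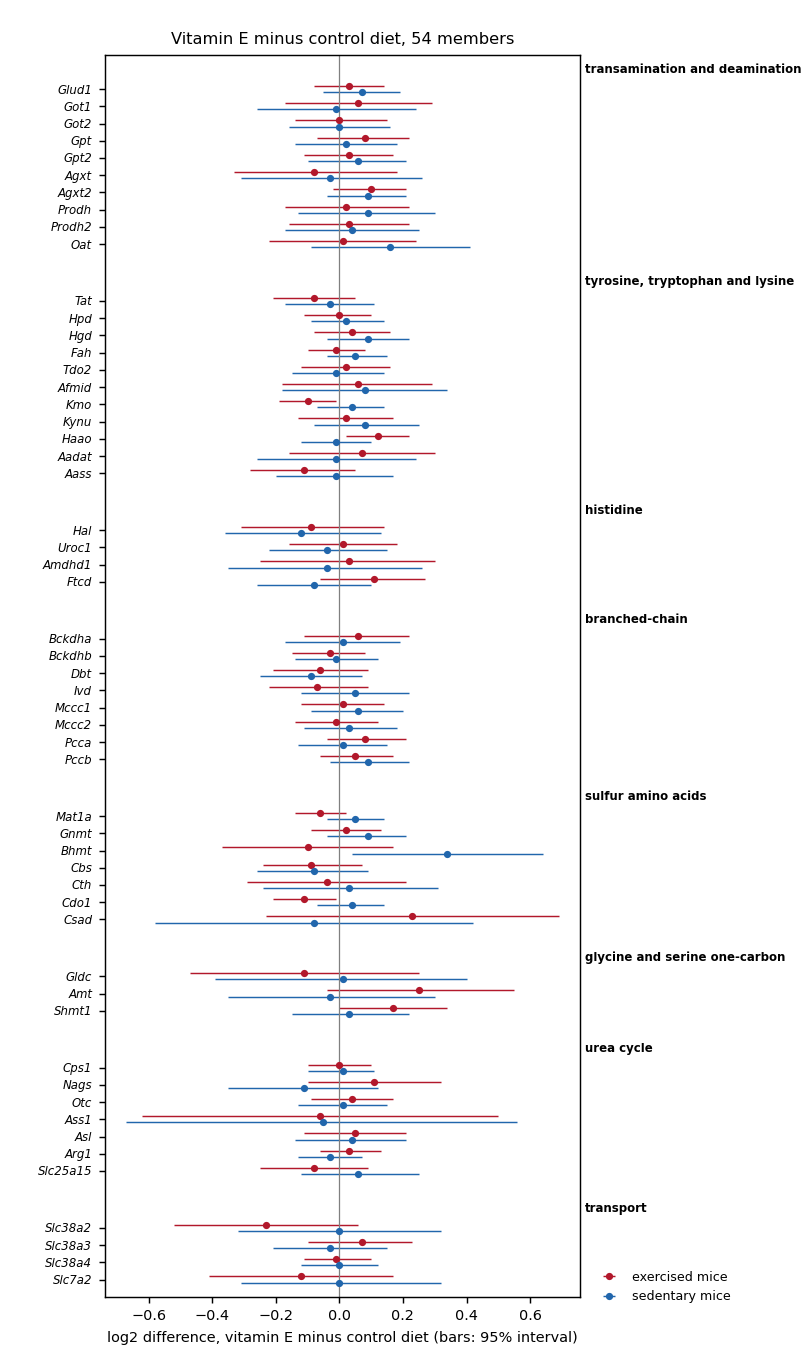
Log2 difference between the vitamin E and the control diet for the 54 genes, grouped by pathway, in exercised mice (red) and sedentary mice (blue), with 95% intervals from limma. No gene had an adjusted p under 0.05, and the points lie between -0.23 for Slc38a2 in exercised mice and 0.34 for Bhmt in sedentary mice.

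The interaction tests whether the response to the run differed between the diets, and none of the 54 genes was called by limma (0% of all probe sets). At an unadjusted p under 0.05, 2 genes passed (3.7% against 5.49% of all probe sets), namely Bhmt (-0.44, SE 0.2, unadjusted p = 0.0336, adjusted p = 0.9) and Cdo1 (-0.15, SE 0.07, unadjusted p = 0.0407, adjusted p = 0.9), both with the smaller response on the vitamin E diet. The Bhmt value rests on its low-signal probe set. For the called genes the interaction was -0.23 for Slc38a2 (95% interval -0.66 to 0.21), 0.07 for Got1 (-0.27 to 0.41) and -0.05 for Tat (-0.24 to 0.14). These intervals hold differences in response as large as most of the responses seen in the set, and equal responses on both diets were not shown.

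Mouse 3 of the exercised control group was the lowest of its 12 mice in 35 of the 54 genes (64.8%), while it was the lowest in 14.1% of all probe sets. It lay below the mean of the other 11 mice in 48 genes, with a median difference of -0.38. No matching share over all probe sets was taken. It lay above all the others in 0 genes, against 13.6% of all probe sets. The genes of histidine breakdown differed most, with Amdhd1 at 6.343 in this mouse against 7.28 to 8.179 in the others and Hal at 7.057 against 7.978 to 8.587. Afmid was at 6.439 against 7.583 to 8.134, and Prodh at 6.736 against 7.343 to 7.999. In transamination and deamination 9 of 10 genes were lowest in this mouse, in histidine breakdown 4 of 4, in the urea cycle 4 of 7 and among the sulfur amino acid genes 3 of 7. Tat, at 11.187, sat in the middle of its group.

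The same mouse had the highest acute-phase expression of all, with a mean of 10.51 over 19 liver transcripts of the acute-phase response, against 8.32 to 9 in 10 of its group mates and 10.3 in mouse 6. Mouse 6 was lowest in only 2 of the 54 genes and highest in 10. Over all probe sets it was the lowest of its group in 14.7% and the highest in 9.4%. Both mice lay below the other 10 in 6 genes, Tdo2, Aadat, Mccc2, Pcca, Pccb and Csad, and above them in 0. How often both lay below or above over all probe sets was not counted. The hepatocyte marker mean was 10.85 in mouse 3 and 10.72 in mouse 6. Acute-phase transcripts were positive for exercise on the control diet in 18 of 18 tested (median 0.22) and on the vitamin E diet in 4 of 18 (median -0.03), none of them called, and their part in the differences of the amino acid genes was not tested.

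Without mouse 3, 4 genes were called on the control diet and 3 on the vitamin E diet, and 22 instead of 15 passed the unadjusted threshold on the control diet, which is 40.7% against 9.41% of all probe sets in that fit. Mouse 3 of the sedentary controls, also low in many of these genes, stayed in that fit. The exercised mouse was singled out by its low values in these same genes, so the higher count is no independent result. Cth came near a call on the control diet without mouse 3 of the exercised controls (0.46, adjusted p = 0.0529). The sign of small differences depended on this mouse. After exercise on the control diet, Gpt was at 0.02, Prodh2 at 0.05, Afmid at 0.05 and Hal at 0.01 without it, all 4 being negative with it. With it, 31 of 54 genes were positive for vitamin E in exercised mice (median 0.016), and without it 17 were (median -0.024). For the interaction, 22 genes were positive with it and 14 without it.

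**Figure D5:**
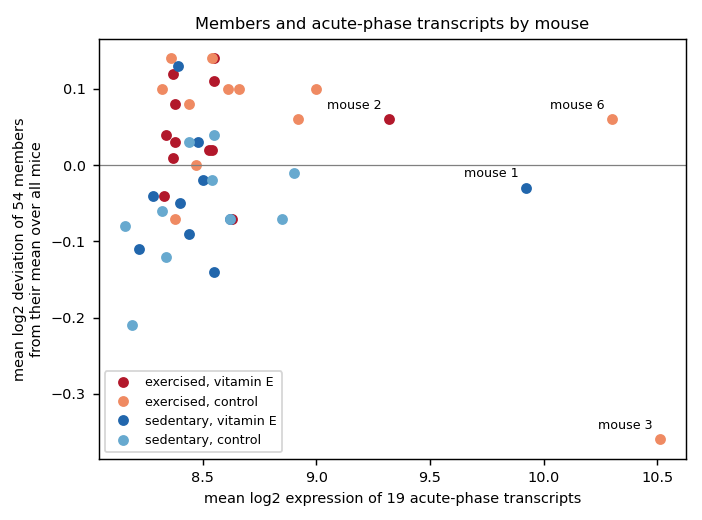
Mean log2 deviation of the 54 genes from their mean over all mice, against the mean log2 expression of 19 acute-phase transcripts, with 1 point per mouse colored by group and the mice above all others on the x axis labelled by their number. Mouse 3 of the exercised control group, at 10.51 and -0.36, lies apart from mouse 6 of the same group, at 10.3 and 0.06.

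Lower values across many genes also occurred in single mice of other groups, to a smaller extent. Mouse 12 of the exercised vitamin E group was the lowest of its group in 31.5% of the genes and 6.8% of all probe sets, mouse 5 of the sedentary vitamin E group in 29.6% and 14.4%, and mouse 3 of the sedentary control group in 33.3% and 18.3%. The mean deviation over the 54 genes was -0.07 in mouse 12 and -0.21 in mouse 3 of the sedentary controls, against -0.36 in mouse 3 of the exercised controls.

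Genes around the set were counted in lists made by function, with earlier results of these data known. Over all probe sets, limma called 0.599% higher after exercise on the control diet and 0.2% on the vitamin E diet. The unadjusted threshold was passed by 9.39% and 6.16%. Of 41 tested genes of other amino acid breakdown steps, 1 rose on each diet, Slc25a22, a mitochondrial glutamate carrier (0.61 on the vitamin E diet, adjusted p = 0.0407, and 0.6 on the control diet, adjusted p = 0.0243). Of 15 other amino acid transporters, Slc36a4 rose on the control diet (0.54, adjusted p = 0.042) and none on the vitamin E diet. Of 18 regulators linked to amino acid breakdown, Egr1, an immediate early transcription factor, rose on both diets (1.52 with adjusted p = 0.000261 on the vitamin E diet, and 1.06 with adjusted p = 0.0161 on the control diet), and Ppargc1a, a coactivator of gluconeogenic genes, rose on the control diet (0.81, adjusted p = 0.0418). For the interaction, 0 of the 18 regulators passed even the unadjusted threshold. Of the 15 transporters 2 passed it, against 5.49% of all probe sets, and limma called 0. A diet difference in the responses of Ppargc1a and Slc36a4 was therefore not shown on these arrays. Of 13 tested genes of amino acid synthesis and the amino acid stress response, limma called 0 on either diet, and 1 passed the unadjusted threshold on each. That threshold was passed after exercise by 7 and 6 of the 18 regulators, control diet first. In the same order it was passed by 4 and 2 of the 41 breakdown genes and by 2 and 3 of the 15 transporters.

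Markers of other liver cells were not called. Kupffer cell and macrophage markers were positive for exercise in 13 of 13 on the control diet (median 0.33) and in 1 of 13 on the vitamin E diet (median -0.22). List means were 4.04 to 6.13 in exercised control mice against 3.52 to 5.05 in sedentary control mice. On the vitamin E diet they were 3.87 to 5.71 in exercised mice against 3.82 to 5.96 in sedentary mice. A few mice stood high, namely exercised control mouse 6 (6.13), exercised vitamin E mouse 2 (5.71) and sedentary vitamin E mice 1 (5.96) and 3 (5.59). The other exercised control mice lay at 4.04 to 4.75. The group medians of the list means were 4.25 in exercised and 4.19 in sedentary control mice, and 4.18 and 4.38 on the vitamin E diet. Periportal markers had medians of 0.09 on the control diet and 0.02 on the vitamin E diet, and pericentral markers 0.05 and -0.04. The part of these cells in the differences of the amino acid genes was not tested.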

How the data were processed

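Liver RNA of 44 mice was hybridised to 1 array each. The authors summarised them by RMA (Affymetrix Expression Console, per the labels) to log2 values per probe set. These deposited values entered every step without rescaling. No genome build is given for these values in the sources used here. Symbols came from the platform annotation, in which 23521 of 41345 probe sets name exactly 1 gene and 1820 name several. For each gene the probe set with 1 symbol and the highest mean over 44 arrays was used. Following the study's methods, a probe set was retained where some group's mean exceeded 4 on the linear scale.

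A single limma fit (version 3.58.1, R 4.3.3) covered the 4 groups, and p-values were adjusted by Benjamini-Hochberg over all 18522 kept probe sets for each of 5 comparisons. The limma p-values set the difference between groups against the spread between mice within groups. The code was tested on simulated data. Full statistics are given for genes with an adjusted p under 0.05 and for the smallest unadjusted p of each of 8 pathways in each 2-group comparison. Other genes are given with values. The genes, pathways, lists and motifs were chosen with earlier results of these data known, and 3 motifs (CREB half-site, CCAAT box, TATA core) after the promoters were read. Promoters (GRCm38.p6) were listed for 43 of 54 genes. Replicate numbers were not taken to pair mice. Deviations from group means correlated at 0.021 on average between mice with the same number and -0.002 between others, a difference that was not tested. Alternatives covered the fit, the filter, scaling, variance model, array weights, number series, replicate number, probe set choice, threshold and left-out mice.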

Additional observations from a re-analysis of the deposited data

Results flagged for a closer look

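In the 2 sedentary groups, 14 of 108 combinations of gene and group had 1 mouse whose gap to its nearest neighbor was a large share of the group's range. Chance flags about 1 in 20 groups, or 5.4 here. The exercised groups, with 12 mice each, were too large for this rule.

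In the sedentary vitamin E group, mouse 5 was low for Hpd (10.727, others 10.989 to 11.127), Hgd (10.07, others 10.288 to 10.454) and Arg1 (10.277, others 10.482 to 10.66), and high for Bhmt (3.03, others 2.026 to 2.53). Mouse 1, which was high in acute-phase transcripts (9.92), was high for Prodh2 (8.112, others 7.599 to 7.809) and low for Pcca (7.345, others 7.696 to 7.825). Oat was low in mouse 2 (9.098, others 9.649 to 10.147), Hal in mouse 8 (7.499, others 7.976 to 8.363) and Mccc1 in mouse 4 (6.007, others 6.307 to 6.65).

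In the sedentary control group, mouse 3 was low for Gpt (7.425, others 7.676 to 7.879) and Hpd (10.64, others 10.953 to 11.142). Agxt was high in mouse 4 (8.909, others 7.522 to 8.167). Fah was low in mouse 6 (9.862, others 10.03 to 10.107) and Slc7a2 in mouse 7 (6.305, others 7.388 to 8.011).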

How the results depend on the processing

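The counts of called genes, 4 and 3 after exercise on the control and vitamin E diets and 0 for diet and interaction, were the same under no filter, both renormalizations, the trended robust variance model, array weights, the mean of all probe sets and the animal number series as a block. With only the compared groups fitted, 3 were called on the control diet, Slc25a15 being lost with an adjusted p of 0.0719. With the replicate number as a block, which was not taken to pair mice, 5 were called on the control diet and 3 on the vitamin E diet. The fifth was Aass, which the stricter filter also called. Leaving out each mouse in turn gave 4 to 5 genes on the control diet, 3 on the vitamin E diet and 0 for diet and interaction. Aass was added without exercised control mouse 5 or 11 or sedentary control mouse 2, and Nags, as a lower call, without exercised control mouse 10. Without mice 3 and 6 of the exercised controls together, or without the 4 mice highest in acute-phase transcripts, chosen after seeing the data, the counts were again 4, 3, 0, 0 and 0.

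Within series 24 alone, 1 gene was called on the control diet (Slc38a2) and 0 on the vitamin E diet, and within series 27 alone 1 (Slc25a15) and 0. The differences of the called genes over all settings with an adjusted p were 1.03 to 1.19 for Slc38a2, 0.62 to 0.75 for Got1, 0.33 to 0.41 for Tat and 0.33 to 0.55 for Slc25a15 on the control diet. On the vitamin E diet they were 0.79 to 0.94 for Slc38a2, 0.72 to 0.81 for Got1, 0.3 to 0.36 for Tat and 0.24 to 0.36 for Slc25a15. The study's threshold gave 10 and 5 genes for exercise on the control and vitamin E diets, 0 for diet in exercised mice and 1 (Bhmt) in sedentary mice. It uses unadjusted p-values.

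Signs turned only for small differences, none of them called, and the cause was not tested. In series 27 alone the diet difference in exercised mice was -0.017 for Nags and -0.084 for Pcca, and that of Slc38a3 in sedentary mice was 0.088. Shmt1 after exercise on the vitamin E diet was -0.006 with the replicate block, and ran from -0.01 to 0.07 with 1 mouse left out (-0.01 and -0.001 without exercised vitamin E mouse 3 or 10). With 1 mouse left out, the diet difference in sedentary mice ran from -0.007 to 0.06 for Shmt1 and from -0.07 to 0.02 for Slc38a3, with -0.007 and 0.003 without sedentary control mouse 4 and, for Slc38a3, 0.02 without sedentary vitamin E mouse 2. With quantile normalization or median centring the median over all probe sets moved by at most 0.033 on the log2 scale. The number of arrays limits precision.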
